A study of Ovis aries with 32 samples.

Results

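Adipokines are proteins that fat cells secrete and that act on other tissues or on the fat cells themselves. Adiponectin (ADIPOQ) is secreted almost only by mature adipocytes and signals through the receptors ADIPOR1 and ADIPOR2, leptin (LEP) reports the size of the fat store to the brain through LEPR, and chemerin (RARRES2) acts on adipocytes and immune cells through CMKLR1. Resistin (RETN), visfatin (NAMPT, also an enzyme of NAD synthesis) and apelin (APLN) are further secreted proteins of fat. Perirenal fat surrounds the kidney and in fetal sheep is a main fat depot.

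The members were taken by gene name, and 8 of the 10 genes sought were matched, with 12 of the table's 35219 transcripts. ADIPOR2 and LEP were not analysed here. RNA was sequenced from perirenal preadipocytes of near-term sheep fetuses of crossbred Columbia-Rambouillet ewes and from the adipocytes that these formed in culture. There are 32 libraries in 8 groups of 4, named by sex (M or F), by control (C) or growth-restricted (FGR) fetus, and with a final D after differentiation: MC, FC, MFGR and FFGR, then MCD, FCD, MFGRD and FFGRD. Growth restriction came from keeping pregnant ewes at a raised ambient temperature, which impairs the placenta, whereas control ewes were kept cooler and pair-fed. The cells are primary cultures from control or growth-restricted fetuses. Only the groups ending in D went through differentiation, and the composition of the differentiation medium is not given in the sources used here. Values are normalized read counts per gene, added up over the transcripts of the gene, and they carry no correction that would allow levels of different genes to be compared.

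The libraries hold approximately 7.82 to 21.3 M reads, as judged from the step between low values, and a value of 10 then stands for 5.54 to 14.4 reads. In 7 libraries (FC replicate 2, FFGR replicates 2 and 3, and MFGR replicate 1 among the preadipocytes, MCD replicate 4, FFGRD replicate 3 and MFGRD replicate 1 after differentiation) the values fell steeply with the genomic span of the transcripts, with a slope of log2 value on log10 bases between -1.5 and -1.0, against -0.91 to -0.04 in the other 25. These are named the steep-slope libraries below, and results on which they bear are given with and without them. The 8 mature adipocyte markers summed to between 83.5 and 1828 in preadipocytes and to between 406.9 and 177100 after differentiation, and all 8 were called higher, though PLIN4 and CIDEC passed the filter on low values through differentiated libraries. FCD replicate 4, labelled as differentiated, held the 406.9 and lay within the preadipocyte range of these markers. In the pentraxin PTX3 and the transcription factor ZBTB16 it lay with the other differentiated libraries, of which the lowest were at 10590 and 156.9 against at most 926.2 and 8.191 in preadipocytes. Fibroblast markers were high at both stages (171600 to 1296000 in preadipocytes and 92520 to 947700 after differentiation), but DLK1, a marker of preadipocytes, was at 0 in 25 libraries. Of 7 fibroblast markers tested, DCN (-1.28), PDGFRB (-0.82) and LUM (-0.61) were called lower and THY1 (1.65) higher, as log2 fold changes. Of 5 smooth muscle and pericyte markers 4 were tested and 3 were called lower (log2 fold changes of -1.81 for ACTA2, -2.73 for CNN1 and -3.43 for DES), and their sum ran from 6203 to 60000 in preadipocytes and from 604.9 to 15400 after differentiation. RGS5, the marker of these 5 that was not tested, was at most 9.856 in preadipocytes and at 0 in 12 libraries. Of 6 endothelial markers CDH5 and TIE1 were at 0 in 25 and 30 libraries, PECAM1 in 8, VWF and KDR in 4 each, and TEK in 1. KDR was called lower (-1.43), though it passed the filter through preadipocyte libraries. Of 6 leukocyte markers PTPRC was at 0 in 20 libraries, while CD14 and CD68 were above 0 in every library, and CD14 was called higher (1.86) and CD68 lower (-0.81). The endothelial sum was at most 92.73 in preadipocytes and 286 after differentiation, and the leukocyte sum at most 568.6 and 910.4.

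Over the 4 groups of fetuses together, fitted on 32 libraries, ADIPOQ and LEPR rose and CMKLR1 fell, whereas ADIPOR1, NAMPT, RARRES2 and APLN did not pass the threshold. A gene was called at a Benjamini-Hochberg adjusted p-value below 0.05 with a fold change above 1.5 (limma on log2(value + 1)), so every fold change is on the log2(value + 1) scale. By this rule 3 of the 7 members tested were called, beside 27.2% of the 12737 genes tested. Of all genes 12.4% were called higher and 14.8% lower. LEPR, 1 of the 2 members called higher, passed the filter through differentiated libraries, so its call is not read against these shares. The median log2 fold change of the 7 members, LEPR included, was 0.55 and that of all genes 0.03. For the same reason the first is not read against the second.

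**Figure D1:**
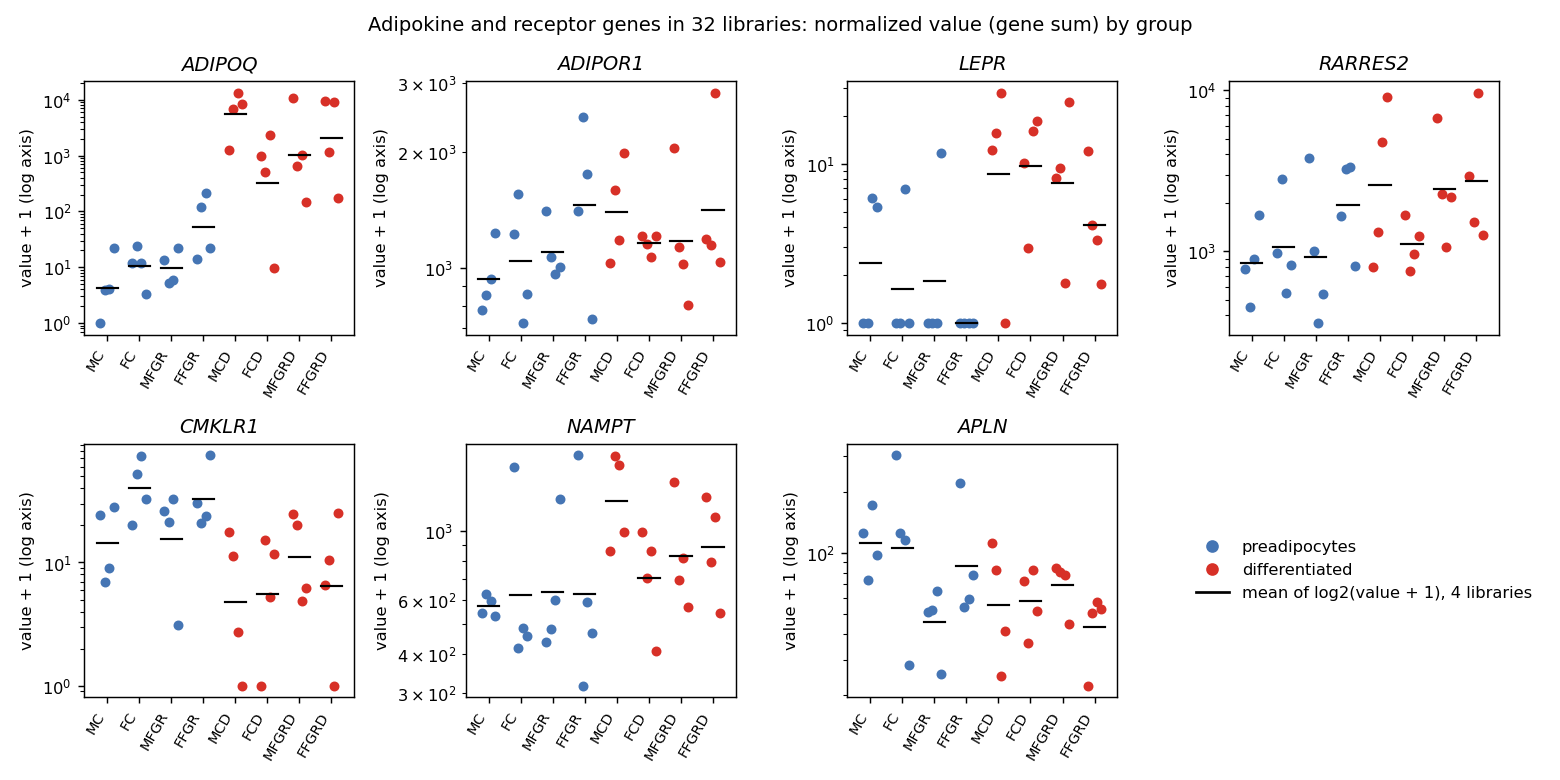
Normalized value + 1 (log axis) of 7 genes in each of the 32 libraries, by group, with preadipocytes in blue, differentiated cells in red, and a bar for the mean of log2(value + 1) over 4 libraries. ADIPOQ separates most of the differentiated libraries from the preadipocytes, CMKLR1 lies lower after differentiation with wide overlap, and ADIPOR1 lies at a like level in all groups.

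ADIPOQ (ENSOARG00020000398) has 1 transcript, ADIPOQ-201, on chromosome 1 from 218921967 to 218933226 of Oar_rambouillet_v1.0. In male control cells its values were 0, 2.955, 3.008 and 20.99 in MC and 1233, 6933, 13420 and 8436 in MCD (replicates 1 to 4). In male growth-restricted cells they were 12.45, 4.237, 4.8 and 21.53 in MFGR and 10710, 661.1, 1012 and 146.1 in MFGRD. In both pairs every differentiated library lay above every preadipocyte library. In female control cells the values were 10.87, 23.17, 10.84 and 2.338 in FC and 990.9, 496.7, 2356 and 8.585 in FCD. In female growth-restricted cells they were 13.14, 120.8, 215.7 and 21.04 in FFGR and 9580, 1160, 8954 and 174.7 in FFGRD. The female pairs overlapped, FC with FCD through the low FCD replicate 4 and FFGR with FFGRD through the high FFGR replicate 3. FFGR replicates 2 and 3 are steep-slope libraries. The 4 of these among the preadipocytes held 12.45 to 215.7 of ADIPOQ against 0 to 21.53 in the other 12, and the 3 after differentiation 8436 to 10710 against 8.585 to 13420 in the other 13. Over both sexes, 13 of the 16 differentiated libraries lay above every preadipocyte library.

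The pooled rise of ADIPOQ was 6.82 on the log2 scale (standard error 0.73, adjusted p = 4.45e-08), and the call held whichever of the 32 libraries was left out. Taken alone, with 8 libraries a fit, the rise was called in MCD against MC (10.33, standard error 0.95, adjusted p = 0.000654) and in MFGRD against MFGR (6.69, standard error 1.15, adjusted p = 0.0199). Without the steep-slope libraries these 3 calls held (pooled 6.85, adjusted p = 2.27e-06). The MFGR call was lost without MFGR replicate 2 (adjusted p = 0.0786), without MFGRD replicate 2 (0.0651) or without MFGRD replicate 3 (0.0652). In FCD against FC the log2 fold change was 4.98 (standard error 1.52, adjusted p = 0.212), and without FCD replicate 4 it was 6.67 and was called (adjusted p = 0.0279). In FFGRD against FFGR it was 5.26 (standard error 1.41, adjusted p = 0.0979), and it was called with the slope on genomic span as a covariate (adjusted p = 0.0152) but not without the steep-slope libraries (6.15, adjusted p = 0.134). The difference in response was not called for MFGR against MC (-3.64, standard error 2.06, adjusted p = 0.995) nor for FFGR against FC (0.28, standard error 2.06, adjusted p = 1).

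By the mean of log2(value + 1), the order of the groups for ADIPOQ was MCD (12.45), FFGRD (11), MFGRD (9.99), FCD (8.34), FFGR (5.74), FC (3.37), MFGR (3.29) and MC (2.11). Each group overlapped the next in this order. ADIPOQ levels after differentiation spanned the whole range from 8.585 to 13420, and the libraries low in ADIPOQ were low in the mature adipocyte markers. In FCD replicate 4 FABP4, a fatty acid carrier of mature adipocytes, was at 215.4 against 3366 to 167600 in the other differentiated libraries. MFGRD replicate 4 and FFGRD replicate 4, next lowest in ADIPOQ at 146.1 and 174.7, had marker sums of 4807 and 5298, the next lowest after FCD replicate 4. In bulk RNA, fewer mature adipocytes in a culture and less ADIPOQ RNA in each cannot be told apart.

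**Figure D2:**
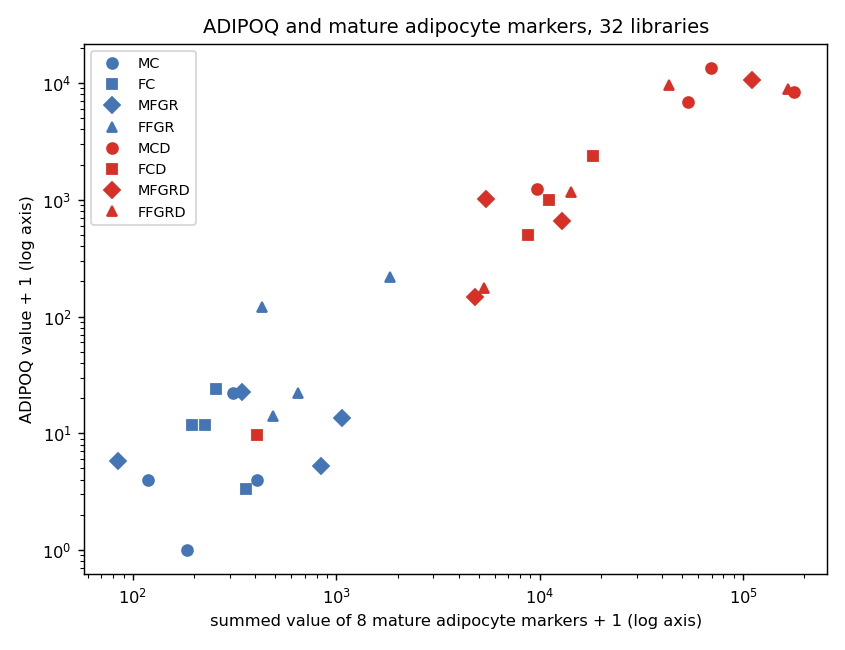
ADIPOQ value + 1 against the summed value of 8 mature adipocyte markers + 1, both on log axes, 1 point per library, with preadipocytes in blue and differentiated cells in red. The differentiated libraries run from 406.9 to 177100 in marker sum, and the 1 among the preadipocytes is FCD replicate 4.

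Among the named genes tested, those whose deviations from the 8 group means were most like those of ADIPOQ over the 32 libraries were ACSS2 (Pearson's r = 0.86), PLAAT3 (0.85) and KLB (0.85). ACSS2 makes acetyl-CoA from acetate, PLAAT3 is an adipose phospholipase, and KLB is the co-receptor for FGF21. The points share library and depth, and no test was made.

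ADIPOR1 (ENSOARG00020019256, chromosome 12), the adiponectin receptor of this set, was present in every library, between 721.6 and 2455 in preadipocytes (median 1037) and between 805.7 and 2840 after differentiation (median 1166). The pooled log2 fold change was 0.20 (standard error 0.17, adjusted p = 0.425), and over the 4 pairs it ran from -0.04 in FFGR to 0.58 in MC (adjusted p 0.235 to 0.976). The receptor gene thus passed no threshold where its ligand gene rose. The steep-slope libraries were high in ADIPOR1, with 1403 to 2455 in the 4 of them among the preadipocytes against 721.6 to 1407 in the other 12. After differentiation the 3 of them held 1978 to 2840 against 805.7 to 1592 in the other 13. Without the steep-slope libraries the fold change was again not called.

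ADIPOR1 has 2 transcripts that share their start coordinate, a shorter one (ENSOART00020029634, 83451877 to 83462553) and a longer one (ENSOART00020029598, 83451877 to 83464883). The shorter transcript held 20.9% to 60% of the gene's value in the 30 libraries where it was above 0, with a median of 30%. In MCD replicate 2 and FCD replicate 2 it was listed at 0 while the longer transcript stood at 1592 and 1154. The same 2 libraries have the steepest slopes among the 25 others, -0.91 and -0.85. The gene sum does not depend on how reads were divided between the transcripts. The transcripts were not called in any of the 5 differentiation fits. The pooled log2 fold changes were 0.17 for the longer transcript (standard error 0.19, adjusted p = 0.614) and -0.69 for the shorter one (standard error 0.75, adjusted p = 0.582).

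LEPR (ENSOARG00020006509, chromosome 1), the leptin receptor, lay near the limit of detection. It was at 0 in 12 of 16 preadipocyte libraries, and the others were 5.115 and 4.319 (MC replicates 3 and 4), 5.981 (FC replicate 3) and 10.61 (MFGR replicate 4). After differentiation it was above 0 in 15 of 16 libraries. The values were 11.25, 14.7, 26.97 and 0 in MCD, 9.046, 1.942, 15.08 and 17.63 in FCD, 7.152, 8.418, 0.7744 and 23.27 in MFGRD, and 11, 3.114, 2.334 and 0.7476 in FFGRD. More differentiated than preadipocyte libraries thus held LEPR reads, but few reads each, and the ranges overlapped.

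The pooled log2 fold change of LEPR was 2.13 (standard error 0.51, adjusted p = 0.00169). It was called whichever of the 32 libraries was left out, and its size rested on the pseudocount, with 4.18 at a pseudocount of 0.1. To be tested, a gene had to reach 10 in 4 or more libraries. LEPR did so in 7 differentiated libraries and 1 preadipocyte library, so it could be tested only because it was high after differentiation, and it did not pass in any fit of 8 libraries. Its 4 transcripts share the start 43129933. LEPR-201 and LEPR-202 end at 43191212, LEPR-203 at 43200280 and LEPR-204, of the longest span, at 43204610. They were above 0 in 2, 6, 8 and 7 libraries, and LEPR-204 in 7 of 16 differentiated and 0 of 16 preadipocyte libraries, at 2.334 to 11. Each transcript thus rested on few reads, and LEPR-203, the only one that passed the filter, was not called (0.64, standard error 0.57, adjusted p = 0.481). The genes most like LEPR in their deviations were E2F6 (r = 0.60), FAM131A (0.58) and HIST3H2BB (0.57), which in values this sparse is no finding.

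RARRES2 (ENSOARG00020010160), whose single transcript lies on chromosome 4 from 122313435 to 122316429, encodes chemerin. Its values were 776.9, 448.7, 890.4 and 1670 in MC and 802.3, 1308, 4796 and 9042 in MCD. They were 3781, 999.2, 357.2 and 544.1 in MFGR and 6705, 2254, 1069 and 2160 in MFGRD. In each male pair, every differentiated replicate was above the preadipocyte replicate of the same number, while the groups overlapped. In the females the values were 969.5, 2828, 550 and 825.2 in FC, 1690, 752.1, 966.9 and 1236 in FCD, 1646, 3242, 3322 and 812.2 in FFGR, and 2929, 1518, 9687 and 1266 in FFGRD. The groups overlapped in both female pairs. By number, FCD was above FC in 3 of 4 replicates and below it in replicate 2, where FC is a steep-slope library and FCD is not.

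The pooled log2 fold change of RARRES2 was 0.89 (standard error 0.39, adjusted p = 0.079), short of the threshold. Leaving out the 7 steep-slope libraries gave 0.94 and a call (adjusted p = 0.013), as did the slope as a covariate (0.87, adjusted p = 0.00573). In the single pairs it was 1.61 in MC (adjusted p = 0.211), 1.39 in MFGR (0.464), 0.48 in FFGR (0.81) and 0.07 in FC (0.973). In MC, MFGR and FC the replicate numbers were taken to pair the samples, though the labels do not say so. Fits blocked on these numbers called RARRES2 in MC (adjusted p = 0.0288) and in MFGR (0.0111). In FC the blocked fit gave no call (0.07, adjusted p = 0.949). The steep-slope libraries were higher in RARRES2 than all others of their stage, with 2828 to 3781 against 357.2 to 1670 in preadipocytes and 6705 to 9687 against 752.1 to 4796 after differentiation. This separation holds for a cut at a slope of -0.95, which was chosen after seeing the data. Just outside the cut, MCD replicate 2 (slope -0.91) and FCD replicate 2 (-0.85) held 1308 and 752.1. The genomic span of RARRES2 is 2995 bases. The part of the slope in these levels was not tested beyond the covariate.

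**Figure D3:**
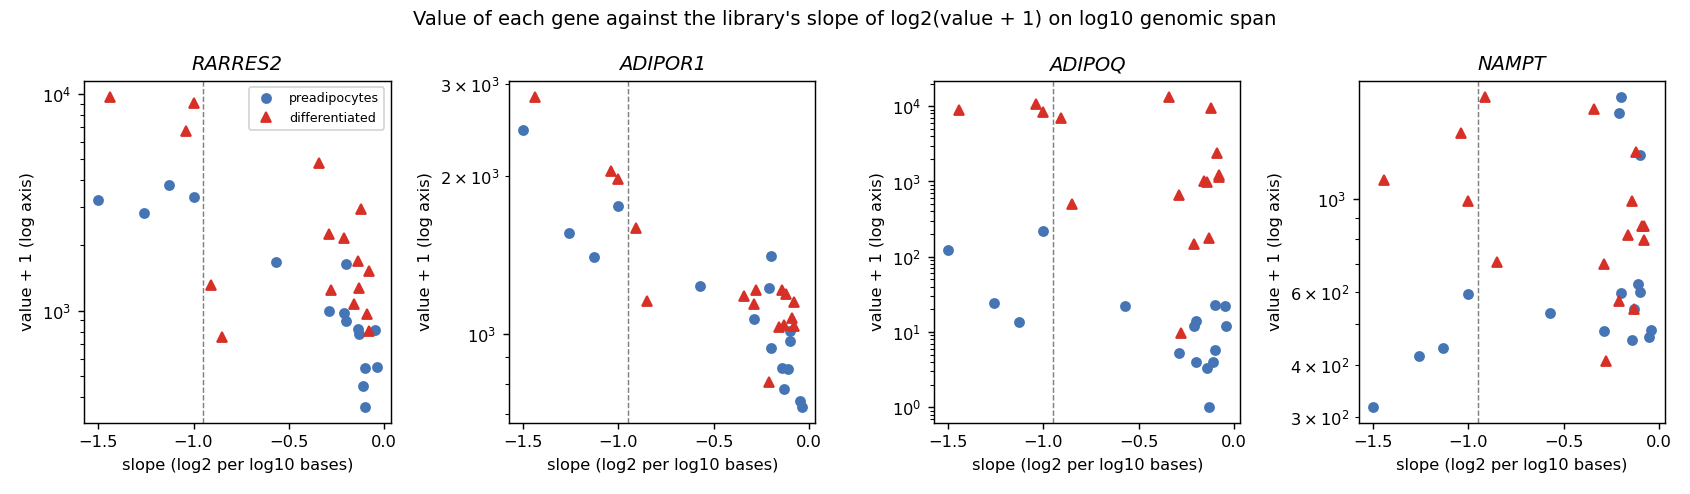
Value + 1 (log axis) of 4 genes in each library against the library's slope of log2(value + 1) on log10 genomic span, with preadipocytes as blue circles and differentiated cells as red triangles. The 7 libraries left of the dashed line at -0.95 are highest in RARRES2 within their stage, and also high in ADIPOR1. Just right of the line, MCD replicate 2 and FCD replicate 2 hold 1308 and 752.1 of RARRES2. For NAMPT the libraries left of the line have a median of 427.8 against 569.4 in preadipocytes. After differentiation it is 1108 against 820.5, with overlap at both stages.

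CMKLR1 (ENSOARG00020005291), the chemerin receptor, has 1 transcript on chromosome 17 from 73807901 to 73810123. Its values were 23.22, 6.002, 8.101 and 26.94 in MC and 16.61, 10.21, 1.719 and 0 in MCD. They were 25.01, 20.39, 31.7 and 2.083 in MFGR and 23.58, 19.27, 3.892 and 5.183 in MFGRD. In the male pairs the groups overlapped. In female control cells the values were 19.16, 51.26, 72.29 and 31.83 in FC and 0, 14.34, 4.275 and 10.66 in FCD, with every FCD library below every FC library, as were the groups of 5.15% of genes in this comparison. CMKLR1 passed the filter of this fit through the FC libraries, so its lack of overlap is not read against that share. In female growth-restricted cells they were 29.36, 19.71, 22.76 and 73.06 in FFGR and 5.622, 9.439, 0 and 24.13 in FFGRD.

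CMKLR1 fell by 1.81 on the log2 scale in the pooled fit (standard error 0.49, adjusted p = 0.00539), and the call again held whichever library was left out. No single pair was called, with log2 fold changes of -2.85 in FC (standard error 0.88, adjusted p = 0.218), -2.33 in FFGR (0.97, adjusted p = 0.292), -1.58 in MC (0.97, adjusted p = 0.348) and -0.47 in MFGR (0.88, adjusted p = 0.88). Smooth muscle and pericyte markers fell in the same fit, and their part in the fall of CMKLR1 was not tested. The ligand gene RARRES2 was thus not called in the fit in which its receptor gene fell. The genes most like CMKLR1 were HIC1, a transcriptional repressor (r = 0.75), and the amino acid transporters SLC7A5 (0.74) and SLC1A5 (0.73), again as a description over 32 libraries.

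NAMPT (ENSOARG00020010718, chromosome 4, 53321910 to 53362209) encodes the enzyme that makes nicotinamide mononucleotide, and outside the cell is known as visfatin. Its values were 543.3, 624.4, 595.6 and 531 in MC and 860.5, 1758, 1643 and 991 in MCD, so these groups did not overlap. It was called in MCD against MC (1.13, standard error 0.28, adjusted p = 0.0406). The call was lost in 7 of the 8 fits that left out 1 library (adjusted p 0.0529 to 0.122), in the fit of all 32 libraries (0.146) and with the slope as a covariate (0.0744), while the log2 fold change stayed between 0.97 and 1.24 in these fits. Log2 fold changes in the other pairs were 0.18 in FC, 0.39 in MFGR and 0.50 in FFGR (adjusted p 0.75 to 0.921). Pooled it was 0.55 (standard error 0.23, adjusted p = 0.0717), and 0.26 without the steep-slope libraries (adjusted p = 0.448).

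Among the preadipocytes NAMPT was high in FFGR replicate 1 (1762), FC replicate 1 (1609) and MFGR replicate 4 (1276), against 315.4 to 624.4 in the other 13. The pooled change was called without FFGR replicate 1 (0.67, adjusted p = 0.0143), without FC replicate 1 (0.66, adjusted p = 0.0193), without MFGR replicate 4 (0.63, adjusted p = 0.0351), without FCD replicate 4 (0.62, adjusted p = 0.0452) or without FFGRD replicate 4 (0.61, adjusted p = 0.0496).

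APLN (ENSOARG00020017755, chromosome X, 121348942 to 121354805) encodes apelin. Its values were 124.9, 72.66, 171.7 and 96.6 in MC, 110.7, 81.17, 23.77 and 40.53 in MCD, 50.38, 51.66, 63.75 and 24.37 in MFGR, and 82.99, 79.33, 76.62 and 43.78 in MFGRD. In the females they were 300.3, 124.3, 114.5 and 27.28 in FC, 72.01, 35.06, 81.21 and 50.87 in FCD, 218.1, 53.08, 58.53 and 77 in FFGR, and 21.3, 49.96, 56.43 and 52.15 in FFGRD. The pooled log2 fold change was -0.57 (standard error 0.28, adjusted p = 0.127), with -1.01 in MC, -0.86 in FC, -1 in FFGR and 0.60 in MFGR (adjusted p 0.255 to 0.654). In MFGR, where the numbers were taken to pair the samples, each of the 4 differentiated replicates was above the preadipocyte replicate of its number. With the block the adjusted p was 0.0998. Every MFGR library lay below every MC library, which in these groups held for 0.408% of genes. This pair was singled out after its values were seen. The difference in the response of MFGR against MC was 1.61 (standard error 0.80, unadjusted p = 0.0535, adjusted p = 0.995).

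RETN (ENSOARG00020009710, chromosome 5, 14826129 to 14827354) encodes resistin, a product of fat in rodents and mainly of macrophages in humans. It was at 0 in 30 libraries and at 0.8474 and 0.7452 in FFGR replicates 1 and 4, each near the value of 1 read. A count of 0 allows up to 3 reads, a value of 2.09 to 5.41 in these libraries, so a lower level was not detectable at this depth. RETN was not tested.

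**Figure D4:**
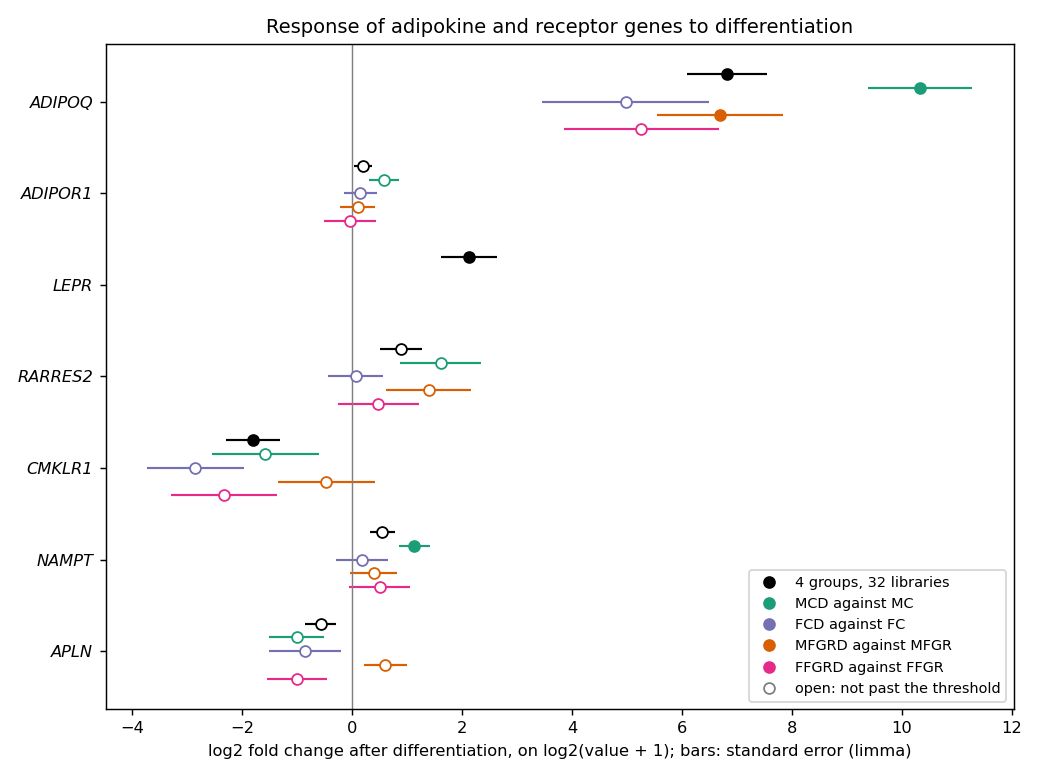
Log2 fold change after differentiation with its standard error (limma) for 7 genes in the pooled fit (black) and in each pair of groups (colours), with filled points past the threshold and open points not. ADIPOQ lies right of 0 in all 5 fits, CMKLR1 left of 0 in all 5, and LEPR was tested only in the pooled fit.

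In the single pairs, the members called were 2 of 6 in MC (beside 7.53% of all genes tested), 1 of 6 in MFGR (3.38%), 0 of 6 in FC (0.43%) and 0 of 6 in FFGR (2.67%). At an unadjusted p below 0.05 there were 2 in FC, beside 12.6% of genes tested, and 2 in FFGR, beside 15.5% (ADIPOQ and CMKLR1 in both). CMKLR1 passed the filter of the FC and FFGR fits through preadipocyte libraries, so it is not read against these 2 shares. In MC the groups of 2 members did not overlap (ADIPOQ and NAMPT, both higher), beside 7.59% of genes higher without overlap, and in MFGR 1 (ADIPOQ), beside 4.84%. ADIPOQ passed the filter of the MC and MFGR fits through differentiated libraries. Its calls and its lack of overlap there are thus not read against these shares. With the replicate block, the members called were 3 of 6 in MC and 2 of 6 in MFGR, where all genes called numbered 1854 and 2081 against 874 and 393 without it. In FC 0 of 6 members and 197 genes were called with the block, against 50 genes without it.

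Growth restriction and sex were compared within each stage on the 32 libraries. None of the 7 members was called in any of these 4 comparisons, nor in the 2 comparisons of the response, and 0% of the 12737 genes were called in each. In preadipocytes, 344 genes (2.7%) for growth restriction and 550 (4.32%) for sex were at an unadjusted p below 0.05. After differentiation there were 136 (1.07%) and 159 (1.25%). For the response there were 159 (1.25%) in MFGR against MC and 61 (0.479%) in FFGR against FC. Each share lay below that expected at this threshold with no difference. No member was among the genes of any of these 6 comparisons. Among the 4 comparisons of growth restriction and sex, the largest member differences were those of ADIPOQ in preadipocytes, 1.78 higher with growth restriction (standard error 1.03, adjusted p = 0.84) and -1.85 for male minus female cells (standard error 1.03, adjusted p = 0.846). Without the steep-slope libraries these were 1.11 and -0.92, again not called. After differentiation, growth-restricted and control cells differed in ADIPOQ by 0.10 (standard error 1.03, adjusted p = 1, and -0.73 without the steep-slope libraries) and male and female cells by 1.54 (standard error 1.03, adjusted p = 1). Differences of this size in ADIPOQ were not detectable at this spread between replicates.

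The genes that act with the members were described from lists made up from textbook roles. Beside their counts stand the 12.4% of all genes called higher and 14.8% called lower in the pooled fit. Genes named as passing the filter through the stage where they are high are not read against these shares. Of 18 genes of adiponectin signalling and secretion, all tested, 2 rose and 2 fell in the pooled fit (median log2 fold change -0.11). CDH13, the T-cadherin that binds adiponectin at the cell surface, fell by 4.82 on the log2 scale (standard error 0.63, adjusted p = 1.08e-06), from 100.7 to 2116 in preadipocytes (median 534.2) to 0 to 107.9 (median 13.36). ASAH1, a lysosomal ceramidase, fell by 1.16 (adjusted p = 3.19e-07). PPARGC1A, a coactivator of mitochondrial genes, rose by 1.46 (adjusted p = 0.0129), and the deacetylase SIRT1 by 0.76 (adjusted p = 0.0235). The AMP-activated kinase subunits and the adaptors APPL1 and APPL2 were not called. CDH13 was also called in MC (-5.35) and FFGR (-4.92) alone. The smooth muscle and pericyte markers fell beside it, and their part in its fall was not tested.

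Of 14 genes of leptin signalling 4 rose and 2 fell (median 0.34). STAT5A, a transcription factor phosphorylated by JAK kinases, rose by 1.30 (standard error 0.16, adjusted p = 2.54e-07), the insulin receptor substrate IRS2 by 1.42 (adjusted p = 0.00341), and PTPN1, the phosphatase that dampens leptin and insulin signalling, by 0.72 (adjusted p = 0.000734). SOCS3, the feedback inhibitor of the leptin receptor, fell by 0.93 (adjusted p = 0.033) and the phosphatase PTPN2 by 0.59 (adjusted p = 0.00617). JAK2 and STAT3 were not called.

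Of 10 genes listed as partners of apelin, chemerin and resistin, 6 were matched and 3 were tested. FURIN, a protease that cleaves many secreted precursors, rose by 1.64 (standard error 0.20, adjusted p = 2.75e-07), from a median of 348.5 to 1048. TLR4, a receptor of innate immunity that has been described to bind resistin, fell by 0.90 (adjusted p = 0.000435). The apelin receptor APLNR was not analysed here. Of 8 tested genes of NAD synthesis and use beside NAMPT, only the mitochondrial deacetylase SIRT3 was called, and it fell by 0.82 (adjusted p = 0.0152).

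Among the C1q/TNF family, the relatives of adiponectin, 5 genes were tested, and 2 rose and 2 fell. C1QTNF1 rose by 3.60 (standard error 0.37, adjusted p = 2.38e-08), from 310.6 to 3543 in preadipocytes to 1559 to 33400, and C1QTNF7 rose by 2.54 (adjusted p = 0.000156) from low values of at most 6.607, and could be tested only through 7 differentiated libraries. C1QTNF3 fell by 3.83 (adjusted p = 0.000522) and C1QTNF2 by 1.17 (adjusted p = 0.000153). The relatives thus went both ways where ADIPOQ rose.

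Of 20 tested genes of other secreted adipose proteins 6 rose and 8 fell (median -0.49). The largest rises were those of PTX3, a pentraxin of innate immunity (7.85, adjusted p = 4.46e-12), SFRP5, a Wnt antagonist (3.27, adjusted p = 0.000167) and BMP4, a growth factor of fat commitment (1.71, adjusted p = 0.000165). The largest falls were those of the glycoprotein GPNMB (-3.17, adjusted p = 6.28e-07), the monocyte attractant CCL2 (-2.97, adjusted p = 5.23e-06) and the cytokine IL6 (-2.78, adjusted p = 0.032). SFRP5 passed the filter through differentiated libraries, and IL6 and GDF15, another of the falls, through preadipocyte libraries. In each case this is the stage where the gene is high. IL6 ran from 0 to 3550 in preadipocytes and from 0 to 93.58 after differentiation. Of 10 adipogenic transcription factors 7 rose and none fell (median 1.43), with ZBTB16, which passed the filter only through differentiated libraries, at 8.93 (adjusted p = 1.57e-14), CEBPA at 4.02 (adjusted p = 1.18e-07) and PPARG, the main regulator of fat cell genes, at 2.26 (adjusted p = 0.000526).

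**Figure D5:**
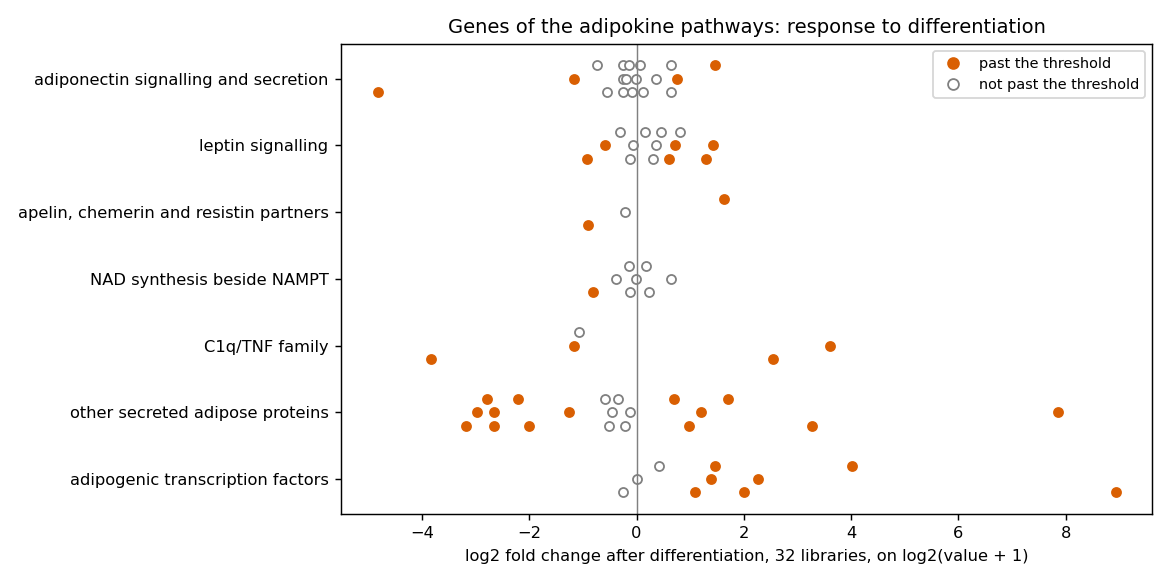
Log2 fold change after differentiation (32 libraries) of each tested gene of 7 lists, with orange points past the threshold and open grey points not. Adipogenic transcription factors lie right of 0 for the most part, whereas the signalling and secreted protein lists hold genes on both sides.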

How the data were processed

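RNA-seq values of 32 libraries in 8 groups were read from 1 deposited table, and groups were taken from the sample labels. The authors discarded reads of low average quality, ran Salmon (version not given in the sources used here) on the Ensembl transcripts of Oar_rambouillet_v1.0 and scaled the read counts with DESeq2. FastQC 0.11.9 is named in the submitters' processing notes. The deposited values are thus a signal in normalized reads, no longer whole numbers, and low values step by a size that differs between transcripts. The deposited group columns are the authors' means of 4 libraries and were not used. The deposited p-value and adjusted p-value columns, and the signed fold change score that the authors deposited beside them, hold the authors' own DESeq2 comparisons and were not used.

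Values were added up per gene identifier (21271 genes) and compared with limma 3.58.1 (R 4.3.3) with a trended prior on log2(value + 1), for genes that reached 10 in 4 or more of the libraries fitted. Pooled, growth restriction, sex and response comparisons were fitted on all 32 libraries with 1 mean per group, and the 4 differentiation comparisons on their own 8 libraries, without a replicate block. The design allowed for edgeR if the table had held raw counts, and it did not. Genes named are the members, the called genes of each pathway list (at most the 3 largest rises and the 3 largest falls) and the 3 genes most like each called member. The members and lists were chosen with earlier results of these data known. Alternatives were a pseudocount of 0.1, 2 other filters, quantile normalization, the span slope as covariate, library weights, a replicate block, single transcripts, all 32 libraries and leaving out each library. On simulated data the pooled fit recovered 97% of genes changed by 3 on the log2 scale and 49% of those changed by 1, and the single pairs 85% and 5% (MC), 66% and 2% (FC), 68% and 7% (MFGR) and 38% and 1% (FFGR).

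Preadipocyte and differentiated libraries of the same number deviated together from their group means in MC (correlations 0.16 to 0.61), FC (0.30 to 0.51) and MFGR (0.39 to 0.67), over 0.1 in every pair, so the numbers were taken to pair the samples there. In FFGR they ran from -0.40 to 0.56 and the numbers were not taken to pair. MC replicate 2 (correlation 0.16) was most like MCD replicate 1, not MCD replicate 2. The labels do not say whether the numbers mark animals, so the p-values measure the spread between these libraries. Approximate reads and floors cover counting error only.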

Additional observations from a re-analysis of the deposited data

Results flagged for a closer look

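Within groups of 4, a library was set apart where its gap to the nearest other, on the log2(value + 1) scale, exceeded Dixon's 95% critical value for the group's range. This was so in 9 of 80 combinations of gene or ADIPOR1 transcript and group. A group with 3 libraries at 0 is set apart by construction, and a group with all at 0 cannot be. The ADIPOR1 sum and its transcripts are also not independent, so the number is not set against a chance rate. The shorter ADIPOR1 transcript was lowest at 0 in MCD replicate 2 and at 0 in FCD replicate 2. In FFGRD replicate 3, a steep-slope library, the ADIPOR1 sum was highest at 2840 and its longer transcript highest at 1998. APLN was lowest at 21.3 in FFGRD replicate 1 and lowest at 43.78 in MFGRD replicate 4. LEPR was highest at 5.981 in FC replicate 3 and at 10.61 in MFGR replicate 4, with the other 3 libraries of each group at 0. NAMPT was highest at 1609 in FC replicate 1.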

How the results depend on the processing

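Of the 40 log2 fold changes of members recomputed, the 6 called kept their direction under every alternative run, and 12 others, none of them called, turned under at least 1. ADIPOQ with growth restriction after differentiation (0.10) became -0.04 with quantile normalization, -1.37 with library weights and -0.73 without the steep-slope libraries, and its response in FFGR against FC (0.28) became -0.01 and -1.84 under the first of these settings and the second. ADIPOR1 became -0.69 pooled, -1.15 in MC and -1.93 in FC for the shorter transcript, -0.03 in MFGR and 0 in FFGR for the longer one, -0.05 in MFGR and 0.14 in FFGR without the steep-slope libraries, and 0.20 in FFGR with the slope. NAMPT became -0.01 in FC, -0.14 in FFGR and -0.06 in MFGR without the steep-slope libraries. The pooled count of 3 members and 3466 genes became 1 and 1721 with a filter of 20 CPM in 3 libraries, which left out LEPR and CMKLR1. In MC, 2 members became 1 with the slope covariate, with all 32 libraries, with single transcripts and without the 7 steep-slope libraries, a setting chosen after seeing the data, through the loss of NAMPT. The 874 genes there became 427 with the 20 CPM filter, 1854 with the replicate block, 448 for single transcripts and 447 without the steep-slope libraries. In MFGR, 1 member became 2 with the slope covariate and with the replicate block, through RARRES2, and 393 genes became 127 (20 CPM), 1610 (slope), 2081 (block), 654 (all 32 libraries) and 210 (single transcripts). In FC, 0 members stayed at 0, and 50 genes became 27 (no filter), 11 (20 CPM), 363 (slope), 197 (block), 321 (all 32 libraries), 23 (single transcripts) and 95 (without the steep-slope libraries). In FFGR, 0 members became 2 with the slope covariate (ADIPOQ and CMKLR1) and 1 with all 32 libraries (ADIPOQ), and 310 genes became 31 (20 CPM), 1952 (slope), 182 (block), 1315 (all 32 libraries), 98 (single transcripts) and 2 (without the steep-slope libraries). Growth restriction gave 2 genes with library weights at either stage and 1 after differentiation without the steep-slope libraries, and sex in preadipocytes gave 1 single transcript. The cause of these shifts was not tested.

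Leaving out 1 library gave 1 to 2 members and 311 (without MCD replicate 3) to 1746 genes (without MCD replicate 1) in MC, 0 to 1 and 77 (without MFGRD replicate 2) to 317 in MFGR, 0 to 1 and 0 (without FCD replicate 3) to 95 (without FC replicate 2) in FC, and 0 and 26 (without FFGRD replicate 2) to 259 in FFGR. The pooled fit gave 3 to 4 members and 3297 to 3609 genes, growth restriction in preadipocytes 0 to 1 gene (1 without MC replicate 2) and the response of MFGR against MC 0 to 1 gene. Pooled RARRES2 was called with the replicate block (adjusted p = 0.00776, numbers not shown to pair in FFGR), quantile normalization (0.0466) and library weights (0.00316), and without MCD replicate 1 (0.0365), MFGR replicate 1 (0.0273) or FC replicate 2 (0.0449). Pooled APLN was called without FC replicate 4 (-0.73, adjusted p = 0.0268). On leaving out 1 library, ADIPOQ ran from -0.75 to 0.69 for growth restriction after differentiation and from -1.42 to 1.46 for the response in FFGR against FC. ADIPOR1 ran from -0.02 to 0.35 in FC, -0.38 to 0.21 in FFGR and -0.17 to 0.28 in MFGR, NAMPT from -0.01 to 0.64 in FC, and RARRES2 from -0.24 to 0.55 in FC and -0.13 to 0.85 in FFGR. The block changed no other call of a member. The shallow values of LEPR, CMKLR1 and RETN limit what depth can show.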

Other observations

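Among the 16 preadipocyte libraries, FC replicate 1 and FFGR replicate 1 were the highest in 6 genes that were picked after their values were seen. Both held the highest APLN of their stage, 300.3 and 218.1 against 24.37 to 171.7 in the others, and the highest NAMPT, 1609 and 1762. VEGFA, the growth factor of blood vessels, stood at 31360 and 31130 against 404.7 to 9371 in 13 others and 2197 in MFGR replicate 4. ERO1A, an oxidase of the endoplasmic reticulum, stood at 9341 and 9631 against 71.38 to 1456 and 410.4. ANGPTL4, a lipase inhibitor, stood at 2617 and 3301 against 336.4 to 998.4 and 176.2, and adrenomedullin (ADM) at 3183 and 3686 against 155.2 to 2745 and 618.7. MFGR replicate 4, the third library high in NAMPT (1276), was lowest of the 16 in APLN (24.37) and in ANGPTL4. What the libraries share was not tested.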
